A study of Mus musculus with 6 samples.

Results

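Transcripts of p53, of the regulators MDM2 and MDM4 and of 7 classic p53-induced genes were followed in mouse CD4 T cells labelled WT or KO for Prmt5. The set was fixed by name (Trp53, Mdm2, Mdm4, Cdkn1a, Bax, Bbc3, Ccng1, Phlda3, Zmat3 and Sesn1), and all 10 names were found among the 54532 gene rows of the deposited table. Values are robust FPM, fragments assigned to a gene and scaled to library size with a robust factor. Where 3 WT and 3 KO values are listed without library names, their order is WT 1, WT 2, WT 4 and KO 1, KO 4, KO 5. There were 3 libraries per group, each from CD4 T cells of spleen and lymph nodes of C57BL/6 mice. The WT group (WT 1, WT 2 and WT 4) has the genotype iCD4-PRMT5fl/fl, with floxed alleles, and the KO group (KO 1, KO 4 and KO 5) has iCD4-PRMT5 delta/delta. The labels do not spell out iCD4, so the promoter that drives deletion is left unnamed, and they give neither age nor sex. All 6 libraries share a treatment label of CD3 and CD28 stimulation for 48 h, whereas their titles carry the word rest. A library code splits them into series 22 (WT 1, WT 2, KO 1) and series 24 (WT 4, KO 4, KO 5), and what the code stands for is not stated.

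The tumour suppressor p53 is a transcription factor that is made continuously and destroyed continuously in unstressed cells. MDM2 is the ubiquitin ligase that marks p53 for destruction and is itself a p53 target, which closes a negative feedback loop, and MDM4 is its relative that binds p53 and blocks its activity. After DNA damage or other stress p53 accumulates and induces genes of cell cycle arrest, apoptosis and metabolism, and in lymphocytes it is a main trigger of death after irradiation. PRMT5 places symmetric dimethyl marks on arginines, including those of spliceosomal Sm proteins, and skipping of an Mdm4 exon is a known consequence of its loss in other cell types. A value per gene does not separate Mdm4 isoforms, so splicing was not analysed here.

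The libraries carried the defining transcripts of CD4 T cells. Cd4 ranged from 388.8 to 465.0 and Cd3e from 112.8 to 140.8. The 10 activation markers were all above 0 and summed to 425.9 to 611.2 in WT and 350.9 to 632.6 in KO. Among them the early marker gene Cd69 ranged from 193.2 to 369.4, Il2ra from 42.0 to 63.5, Irf4 from 22.4 to 35.9 and Il2 from 0.7 to 1.1. The 13 myeloid markers were all above 0 and summed to 313.1 to 1145.1 in WT and 805.9 to 1710.5 in KO, the 9 B cell markers to 486.6 to 527.6 and 370.7 to 740.9, and the 8 CD8 T and NK markers to 83.4 to 108.0 and 95 to 116.6. Of the B cell markers, the immunoglobulin gene Ighm made up most of the sum at 308.0 to 665.2, with H2-Aa at 16.7 to 35.7, Cd79b at 4.3 to 7.4 and Cd79a at 0.2 to 0.7. In the CD8 T and NK list Klrb1c was at 15.8 to 28.8, Cd8b1 at 7.1 to 8.7 and Cd8a at 0.2 to 2.1. The haemoglobin genes Hba-a1 and Hbb-bs were listed at 0 throughout. Such bulk values do not separate fewer cells of a type from less RNA per cell. Prmt5 itself had values of 34.9, 41.0 and 43.9 in the WT libraries against 24.4, 23.8 and 21.5 in the KO libraries, without overlap. KO libraries wholly below WT libraries were found for 1.79% of all genes tested. The fitted log2 difference of Prmt5 was -0.78 (95% interval -1.10 to -0.46), which did not pass over all genes (limma adjusted p = 1, unadjusted 0.00049). The KO libraries thus kept Prmt5 signal, at 0.582-fold of WT (95% interval 0.467 to 0.725). Sequencing depth is unknown. Signal at 1731 olfactory and vomeronasal receptor genes, which T cells are not known to use, was 0.300, 0.0838 and 0.0145 FPM per kb of exon for WT, against 0.0342, 0.0805 and 0.0253 for KO, so WT 1 stood apart.

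Promoter sequences of the set differed in how closely they matched the p53 element just before their starts. RefSeq promoters (GRCm38.p6, 250 bases before each start) were given for 9 of the 10 genes in 14 windows. Each window was searched for the p53 consensus, a pair of adjoining 10-base elements whose pattern reads the same on both strands. Of 32851 windows of all genes, 3 matched it in full, 25 (0.0761%) had at most 1 mismatch and 1747 (5.32%) had at most 3. Cdkn1a and Ccng1 each had a window with 1 mismatch, and a further 5 genes, Trp53, Mdm4, Bax, Bbc3 and Sesn1, had a best match with 3. The best match of Mdm2 and of Phlda3 had 5 mismatches. Stretches farther upstream, after the start or with a gap inside the pair were not searched. A poor match here thus does not mean that a gene lacks a p53 element. The first 2 sequences below are the closest matches of the set and the third is a match with 3 mismatches at an apoptosis gene, each with its best match in capitals.
Cdkn1a, chr17:29090903-29090972, plus strand: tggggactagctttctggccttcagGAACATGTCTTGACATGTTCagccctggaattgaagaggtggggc
Ccng1, chr11:40755437-40755506, minus strand: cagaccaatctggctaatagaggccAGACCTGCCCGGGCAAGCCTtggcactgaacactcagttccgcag
Bbc3, chr7:16309461-16309530, plus strand: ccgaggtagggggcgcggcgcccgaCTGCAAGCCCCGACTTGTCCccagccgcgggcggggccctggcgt
The Cdkn1a match lies 32 to 51 bases before an upstream start of the gene, and 2822 bases before its downstream start. The Ccng1 match lies 176 to 195 bases before the start. A match is a description of the letters and not of binding, which was not measured here. The 2 closest matches sat at opposite ends of the expression range described next.

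Per kb of exon, Ccng1 was the most abundant transcript and Cdkn1a the least. Ccng1, which encodes cyclin G1, a partner of the phosphatase that acts on MDM2, had 55.3 ± 6.17 FPM per kb (SD over 6 libraries). Below it came Sesn1 at 39.3 ± 5.01 and Mdm4 at 32.3 ± 2.59, whose ranges overlapped. Bax at 20.4 ± 3.50 and Mdm2 at 18.97 ± 1.31 overlapped likewise, as did Bbc3 at 6.56 ± 2.17 and Trp53 at 5.896 ± 1.01. Zmat3 had 1.29 ± 0.115 and Phlda3 0.780 ± 0.318, again with overlap. Cdkn1a had 0.197 ± 0.0890, below every value of Phlda3. In WT 1, Cdkn1a at 0.366 and Phlda3 at 0.385 FPM per kb lay close to the receptor gene signal of that library (0.300), whereas in WT 4 they were at 0.113 and 0.770 against 0.0145. Lengths are unions of all annotated exons, 14.798 kb for Mdm4 and 1.576 kb for Bax, so that per-length values of genes with long rarely used exons are understated.

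**Figure D1:**
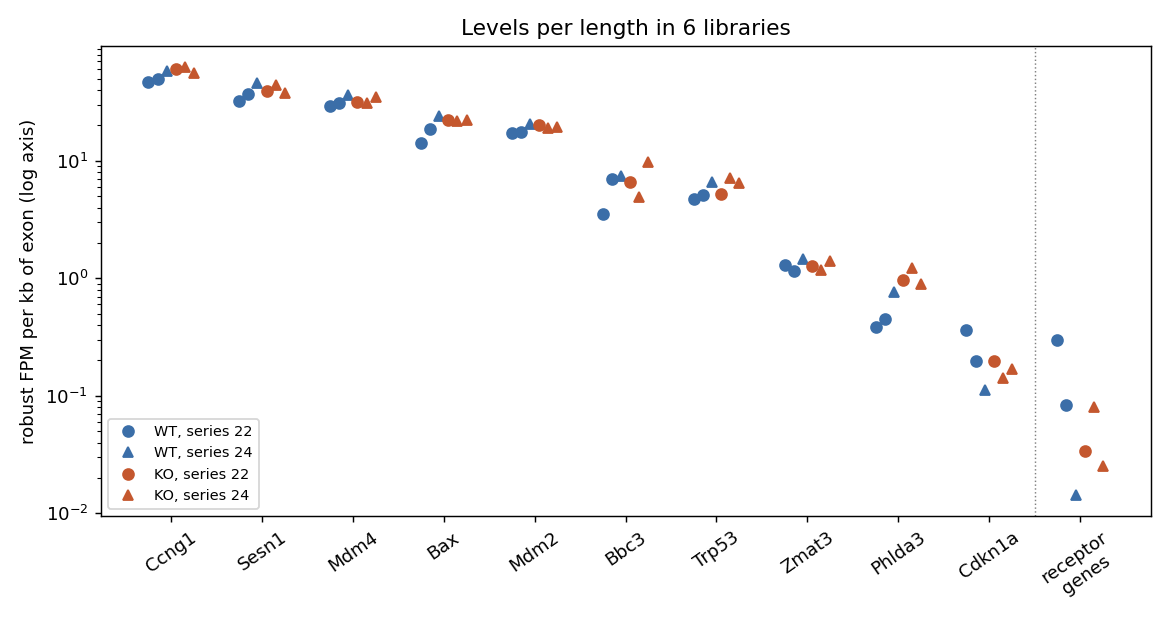
Robust FPM per kb of exon (log axis) for the 10 genes in order of their mean, and at the right the summed receptor genes that serve as a measure of background. Each point is 1 library, coloured by genotype and shaped by library series, and Ccng1 (mean 55.3) lies far above Cdkn1a (mean 0.197), whose WT 1 point is near the background of that library.

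The comparison of KO with WT asks whether p53-axis transcripts differ in amount between the Prmt5 genotypes. Differences below are KO minus WT on the log2(FPM + 0.5) scale from limma, with genotype and library series as terms, fitted to the 14944 genes with a mean of at least 1, and p-values are adjusted over all of them by the Benjamini-Hochberg method. In simulated data with known changes, this fit called 0% of 1.5-fold and 66.7% of 2-fold changes. A count of 0 called genes thus does not exclude changes of that size. The simulated noise was drawn independently for each gene, and a shift shared by many genes of a library was not simulated. The share called may therefore be lower in the real libraries. Of the 10 genes 9 passed the filter on the mean. Cdkn1a (mean 0.70) fell just under it and Phlda3 (mean 1.22) lay just over it. Of these 9, limma called 0 in either direction, as it did for all genes (0.0% of 14944), and 0 reached an unadjusted p under 0.05, against 37 of all genes (0.248%). The difference was positive for 7 and negative for 2 of the 9, where 54.4% of all genes were positive. That count was 1 positive and 8 negative with scaling to the ERCC spike-in rows, and 3 and 6 without KO 1. For 7 of the 9 the 95% interval of the difference lay within 1.5-fold in both directions, against 60.1% of all genes, and the exceptions were Bbc3 and Phlda3. The labels do not tie libraries to separate animals, although the series' design text calls them biological replicates, and the p-values measure only the spread between them.

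Trp53 (ENSMUSG00000059552.13, GRCm38 chromosome 11, 69580359 to 69591873, plus strand) encodes p53. Its WT libraries had 19.3, 20.6 and 26.9, and its KO libraries had 20.9, 29.1 and 26.3. The high values were those of series 24 in both genotypes, and the genotypes overlapped. The difference was 0.05 (SE 0.118, 95% interval -0.22 to 0.33, limma adjusted p = 1), with 0.07 within series 22 and 0.04 within series 24.

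Mdm2 (ENSMUSG00000020184.15, chromosome 10, 117688875 to 117710758, minus strand) encodes the ligase of p53 and varied least of the set, with an SD of 0.10 on the log2(FPM + 0.5) scale over the 6 libraries. It measured 87.8, 89.2 and 104.1 in WT and 102.1, 97 and 98.4 in KO. The KO values all lay inside the WT range. Its difference was 0.06 (SE 0.115, 95% interval -0.21 to 0.32, limma adjusted p = 1), positive at 0.21 within series 22 and negative at -0.09 within series 24.

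Mdm4 (ENSMUSG00000054387.13, chromosome 1, 132959484 to 133030561, minus strand) encodes the MDM2 relative that blocks p53. It measured 433.5, 456.2 and 534.7 in WT and 465.0, 462.2 and 513.5 in KO. Again the KO values lay within the WT range, with WT 1 lowest and WT 4 highest. The total of all its isoforms differed by -0.03 (SE 0.111, 95% interval -0.29 to 0.22, limma adjusted p = 1), which corresponds to an interval of 0.817-fold to 1.17-fold. The sign was positive within series 22 (0.06) and negative within series 24 (-0.13). The pseudogene Gm29257 lies within Mdm4 on the opposite strand, without shared exon, and measured at most 1.6.

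Ratios between these genes within a library do not depend on library scaling. Mdm2 over Trp53 was 4.55, 4.33 and 3.87 in WT and 4.89, 3.33 and 3.74 in KO. The 3 libraries of series 22 all had a higher ratio than the 3 of series 24. This split is not a separate result, since the denominator Trp53 lay wholly higher in series 24 while Mdm2 overlapped between the series. The genotypes overlapped (exact permutation test over 3 against 3 libraries, without account of series, two-sided p = 0.6). Mdm4 over Mdm2 was 5.06 ± 0.109 in WT and 4.85 ± 0.339 in KO (SD, n = 3, exact permutation p = 0.4). These ratios, and that of Bax over Bcl2 below, were chosen after the values had been seen, and over the 3 the adjusted p was 0.6 for each.

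Cdkn1a (ENSMUSG00000023067.14, chromosome 17, 29090976 to 29100727, plus strand) encodes p21, the inhibitor of cyclin-dependent kinases that carries out p53-dependent arrest. It measured 1.3, 0.7 and 0.4 in WT and 0.7, 0.5 and 0.6 in KO. The WT values enclosed the KO values, and its highest value was in WT 1, the library with the highest receptor gene signal. With 3 against 3 libraries an exact permutation test cannot go below p = 0.1, and here it gave p = 0.8 (two-sided). The opposite-strand transcript AC167363.2 shares 273 bases of exon with it, and was at 0.2 or less. Cdkn1b, which encodes the related inhibitor p27, had a WT mean of 251.4 ± 14.2 and a KO mean of 260.4 ± 26.9 (SD, n = 3).

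Ccng1 (ENSMUSG00000020326.7, chromosome 11, 40748552 to 40755311, minus strand) measured 164.0, 172.6 and 204.0 in WT and 210.3, 218.9 and 194.8 in KO. Among the KO libraries 2 exceeded every WT library, and KO 5 fell below WT 4. The difference was 0.17 (SE 0.120, 95% interval -0.11 to 0.45, limma adjusted p = 1), at 0.32 within series 22 and 0.02 within series 24. Leaving out WT 4 leaves the comparison to series 22 alone, and leaving out KO 1 leaves it to series 24 alone, so those 2 values are also the ones without these libraries.

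Among the apoptosis genes, Bax encodes the protein that opens the outer mitochondrial membrane, and Bbc3 encodes PUMA, which neutralises the BCL2 proteins that hold BAX in check. Bax (ENSMUSG00000003873.11, chromosome 7, 45461697 to 45466898, minus strand) measured 22.2, 29.4 and 37.5 in WT and 34.8, 34.1 and 34.7 in KO. Its KO values were nearly equal (34.5 ± 0.379, SD, n = 3), while the WT values were spread around them (29.7 ± 7.65). The difference was 0.16 (SE 0.172, 95% interval -0.24 to 0.56, limma adjusted p = 1), with 0.44 within series 22 and -0.12 within series 24. The gene Gm45808 shares 192 bases of exon with Bax on the same strand and was listed at 0 in all 6 libraries.

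Bbc3 (ENSMUSG00000002083.13, chromosome 7, 16308393 to 16318205, plus strand) measured 7.5, 14.9 and 15.7 in WT and 14.1, 10.5 and 20.9 in KO. WT 1 was lowest and KO 5 highest, and the groups overlapped. The difference was 0.16 (SE 0.330, 95% interval -0.61 to 0.92, limma adjusted p = 1). WT 1 and KO 5 were also the lowest and highest libraries for the summed myeloid markers, at 313.1 and 1710.5, and the part of myeloid cells in the Bbc3 values was not tested. The sign was positive within series 22 (0.40) and negative within series 24 (-0.08).

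Their partners in the BCL2 family were without a call, with 0 of 13 tested genes called in either direction by limma. Of the 13, 6 were positive (46.2%, against 54.4% of all genes) and 7 negative, with a median difference of -0.01 against 0.01 for all genes. Pmaip1, which encodes NOXA, had the most positive difference at 0.33, followed by Bcl2a1b at 0.20. Bmf at -0.27 and Bid at -0.12 were the most negative. Bcl2, the survival gene of naive T cells, measured 193.0, 230.7 and 249.1 in WT and 201.8, 210.3 and 249.0 in KO. Bax over Bcl2 was 0.131 ± 0.0180 in WT, against 0.158 ± 0.0169 in KO (SD, n = 3), and the groups overlapped (exact permutation test, two-sided p = 0.2).

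Phlda3, Zmat3 and Sesn1 act in signalling, RNA binding and nutrient sensing. PHLDA3 competes with the kinase AKT for membrane lipids, and its gene (ENSMUSG00000041801.5, chromosome 1, 135766119 to 135769136, plus strand) measured 0.6, 0.7 and 1.2 in WT and 1.5, 1.9 and 1.4 in KO. It was the 1 gene of the set whose KO libraries all lay above all WT libraries, a pattern that 1.09% of all genes showed. It passed the filter only through the KO group (mean 1.6 ± 0.265, against 0.833 ± 0.321 in WT, SD, n = 3), which favours such a pattern. The difference was 0.56 (SE 0.349, 95% interval -0.24 to 1.37) and did not pass (limma adjusted p = 1, unadjusted 0.145). An exact permutation test, which takes no account of series, gave the smallest p that 3 against 3 libraries allow (two-sided p = 0.1). The difference was positive within both series, at 0.80 within series 22 and 0.33 within series 24. At pseudocounts of 0.1 and 1 the difference was 0.76 and 0.43, so a value near 1 FPM depends on this choice.

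ZMAT3 is an RNA-binding zinc finger protein, and Zmat3 (ENSMUSG00000027663.12, chromosome 3, 32334792 to 32366014, minus strand) measured 14.7, 13.3 and 16.6 in WT and 14.6, 13.5 and 16.0 in KO. Its values hardly separated the libraries, and the difference was -0.05 (SE 0.139, 95% interval -0.38 to 0.27, limma adjusted p = 1). Sestrin 1, which restrains the growth kinase mTORC1, is encoded by Sesn1 (ENSMUSG00000038332.13, chromosome 10, 41809935 to 41908424, plus strand). Sesn1 measured 128.7, 145.8 and 182.0 in WT and 155.0, 176.9 and 150.6 in KO. The KO values lay inside the WT range, and the difference was 0.01 (SE 0.133, 95% interval -0.30 to 0.32, limma adjusted p = 1). The transcript 9930024M15Rik lies within Sesn1 on the same strand, without shared exon, at 3.1 to 6.2. Among relatives of the set, 0 of 11 tested genes were called by limma, with 6 positive (54.5%, against 54.4% of all genes) and 5 negative. Sesn3 measured 221.5 to 257.9 and Sesn2 2.9 to 3.7 over the 6 libraries. Cdkn1c had the most positive difference at 0.37 and Phlda1 the most negative at -0.25, closely followed by Trp63 at -0.24.

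**Figure D2:**
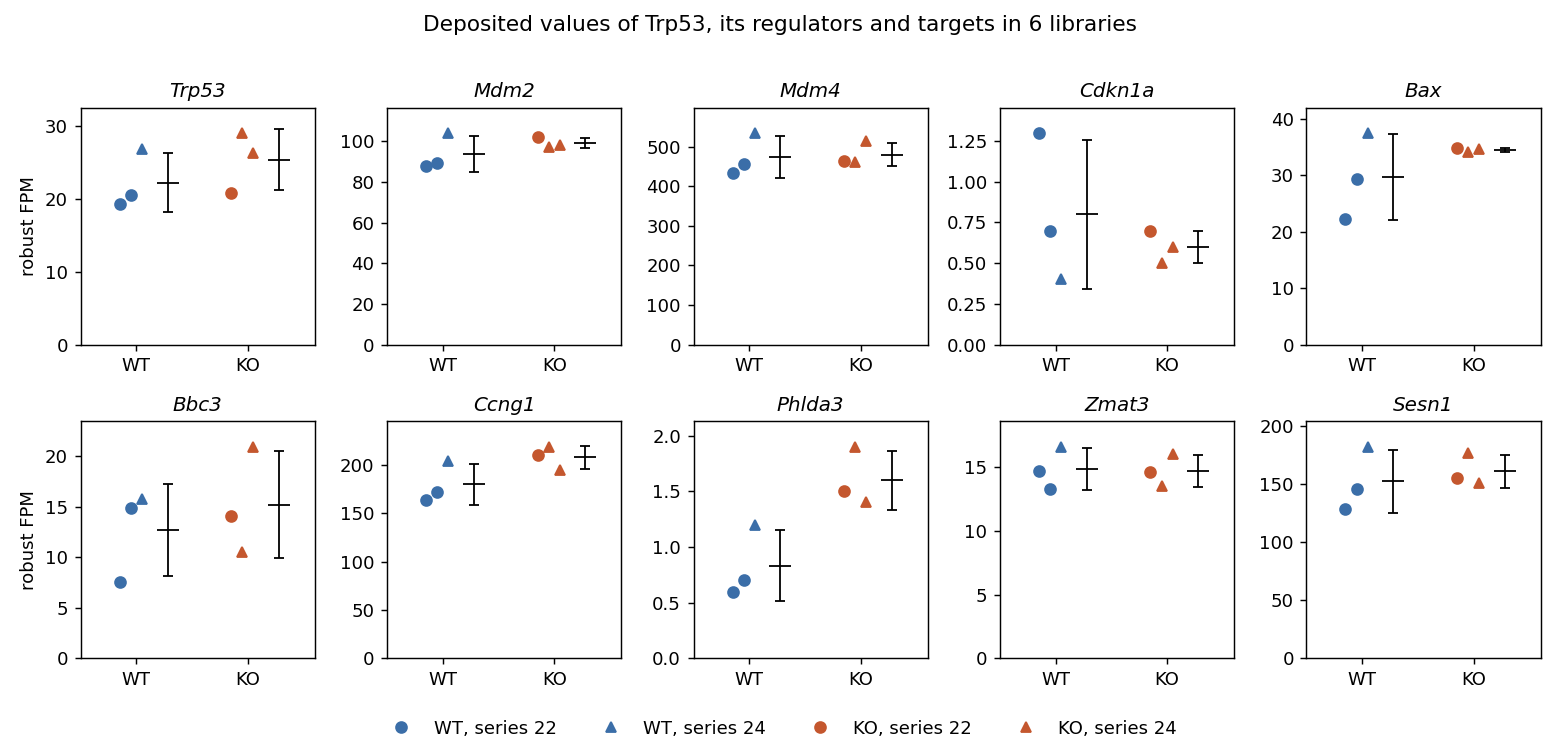
Robust FPM (linear axis from 0) of each of the 10 genes in the 3 WT and 3 KO libraries, with mean and SD beside the points. Circles are series 22 and triangles series 24, and the KO points lie wholly above the WT points for Phlda3 only, at 1.4 to 1.9 against 0.6 to 1.2.

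WT 1 was the lowest library for 8 of the 10 genes, the exceptions being Zmat3 and Cdkn1a, and WT 4 was the highest for 5. Over all tested genes WT 1 alone was lowest for 44.3%, and the share with WT 4 highest was not counted. Within series 22, which compares KO 1 with WT 1 and WT 2, all 9 tested genes had positive differences, with a median of 0.21 against 0.12 for all genes. Most of all genes were positive there too, 54.3% with a negative and 12.1% with a positive difference in series 24. Within series 24, which compares KO 4 and KO 5 with WT 4, 3 were positive and 6 negative, with a median of -0.09 against -0.08. The combination of a positive difference in series 22 and a negative one in series 24 was found for 6 of the 9 and for 54.3% of all genes, and positive differences in both for Trp53, Ccng1 and Phlda3, and for 12.1% of all genes. An interaction of genotype with series called 0 of the 9, and 0 genes in all (0.0%), by limma at an adjusted p under 0.05, with 0 of the 9 and 369 genes in all (2.47%) at an unadjusted p under 0.05. The largest interaction of the set in size was that of Bax (-0.56, SE 0.286, limma adjusted p = 0.678).

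Trp53 values followed the library series. Its series 22 libraries lay at 19.3 to 20.9 and its series 24 libraries at 26.3 to 29.1, without overlap, a pattern in this direction that 14.3% of all genes showed. The series 24 minus series 22 difference was 0.41 (SE 0.118, 95% interval 0.14 to 0.68), which did not pass (limma adjusted p = 0.384, unadjusted 0.00879). It stayed between 0.38 and 0.44 when each library was left out in turn. An unadjusted p under 0.05 with a higher level in series 24 was found for Trp53 alone of the 9, and for 5.98% of all genes. Of the 9 tested genes 0 were called by series, against 1 of all genes as higher (0.00669%) and 20 as lower (0.134%) in series 24. All 9 had positive series differences, as had 61.7% of all genes, from 0.08 for Mdm2 to 0.41 for Trp53. Cdkn1a, under the filter, was at 0.7 to 1.3 in series 22 and 0.4 to 0.6 in series 24. The stress-responsive chaperone gene Hspa1a was at 61.9 to 126.3 in series 22 and 5.6 to 6.6 in series 24, and its part in these values was not tested.

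**Figure D3:**
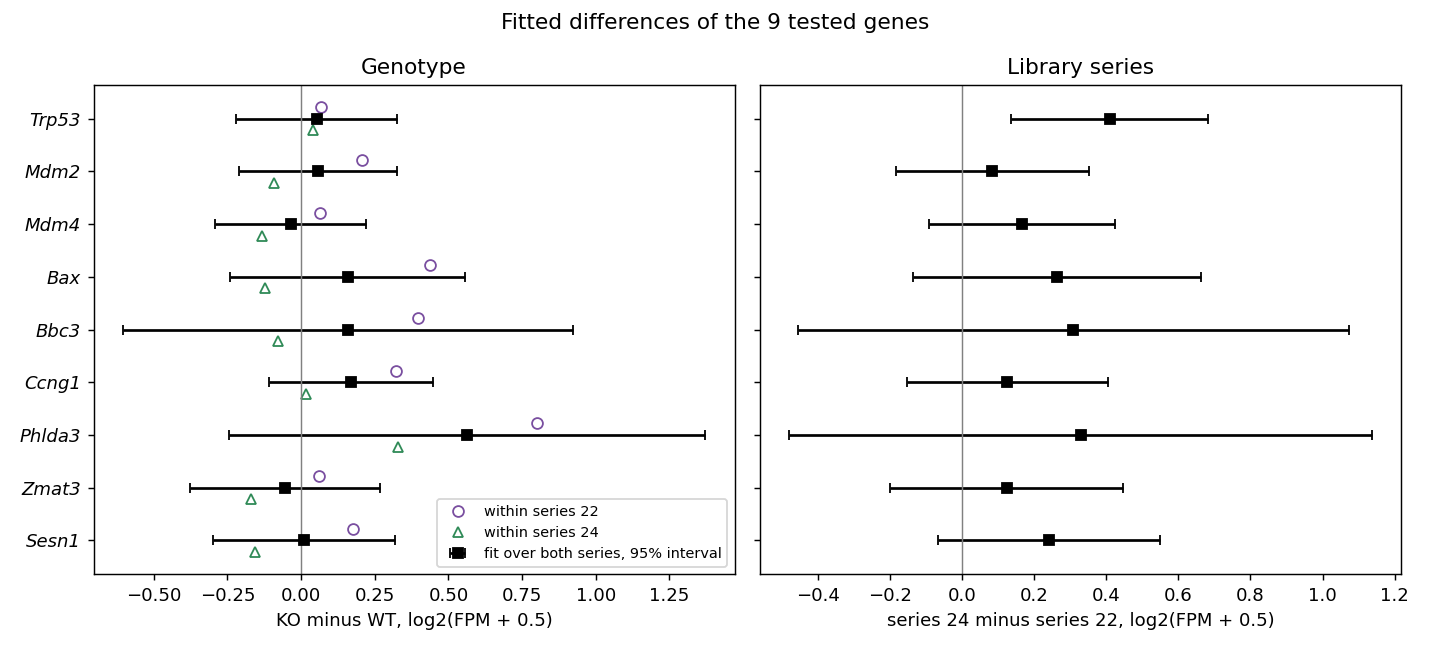
Fitted differences of the 9 tested genes on the log2(FPM + 0.5) scale with 95% intervals, for genotype (left, with the values within each library series as open symbols) and for library series (right). All 9 genotype intervals include 0, and of the series intervals that of Trp53 (0.14 to 0.68) excludes it.

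Other p53 targets were taken from a list of 49 names, of which 47 were found and 40 passed the filter. By limma 0 of 40 were called in either direction, and 0 had an unadjusted p under 0.05. The difference was positive for 37 and negative for 3, where 54.4% of all genes were positive, and the median was 0.11 against 0.01. Markers of myeloid, B and CD4 T cells leaned the same way. Of the myeloid markers 11 of 13 were positive, with a median of 0.44, at 0.99 within series 22 and 0.01 within series 24. Of the B cell markers 7 of 8 were positive, with a median of 0.27, at 0.56 and 0.01. Of the CD4 T cell markers 7 of 8 were positive, with a median of 0.08, at 0.25 within series 22 and -0.11 within series 24. Of the CD8 T and NK markers 4 of 7 were positive, with a median of 0.16. The part of these cells in the values of the p53 targets was not tested. With scaling to the ERCC spike-in rows, which moved the median of all genes to -0.20, 7 of the p53 targets were positive and 33 negative. The median of that list less that of all genes was 0.098 with the deposited scaling and 0.095 with the ERCC scaling. Within series 22 the list had a median of 0.22 against 0.12 for all genes, and within series 24 one of -0.05 against -0.08. Without KO 1, 17 of 40 were positive, and without WT 1, 28 were.

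The most positive differences of that list belonged to Dcxr (0.49), Psrc1 (0.47), Pltp (0.45) and the death receptor gene Tnfrsf10b (0.36), and the most negative to the cytokine gene Lif (-0.45) and Pidd1 (-0.11), with Cd80 and Rrm2b near 0. Dcxr, which encodes a sugar reductase, measured 1.5, 2.1 and 3.9 in WT and 3.8, 3.6 and 4.6 in KO. WT 4 exceeded KO 1 and KO 4, so the groups overlapped. Of the 40, 3 (7.5%) had KO libraries wholly above WT libraries, namely Fdxr, Pltp and Zfp365, where 1.09% of all genes did. Fdxr, which encodes a mitochondrial electron carrier reductase, measured 18.5, 20.8 and 26.1 in WT and 26.7, 31.1 and 27.4 in KO. Its difference was 0.30 (SE 0.133, limma adjusted p = 1), at 0.44 within series 22 and 0.16 within series 24. Zfp365 measured 5.9, 6.9 and 5.9 in WT and 7.1, 7.3 and 7.1 in KO, and Pltp 0.9, 1.3 and 1.2 in WT and 1.8, 1.7 and 1.7 in KO. Rps27l, whose promoter window is among the 25 with at most 1 mismatch to the p53 consensus, was at 16.5, 23.7 and 23.7 in WT and 25.6, 21.6 and 21.6 in KO.

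By library series, Plk2 was the 1 of the 40 tested genes of that list called by limma. It was lower in series 24, as were 20 of all genes (0.134%). Of 7 heat shock and early response genes, 4 were called lower, among them Hspa1a and Jun. The part of p53 in these series differences was not tested. Plk2, which encodes a stress-induced polo-like kinase, measured 17.0, 16.3 and 24.7 in WT 1, WT 2 and KO 1 of series 22, and 4.5, 4.4 and 3.8 in WT 4, KO 4 and KO 5 of series 24. The series 24 minus 22 difference was -2.12 (SE 0.184, limma adjusted p = 0.0121). The call was lost without WT 4 (adjusted p = 0.0778), without KO 1 (0.395), with ERCC scaling (0.0530) and without a mean-variance trend (0.156), at differences from -2.46 to -1.78. Gadd45a, a growth arrest gene, had a like pattern, with 12.1 to 16.9 in series 22 and 6.1 to 7.1 in series 24, but did not pass (-1.03, SE 0.167, limma adjusted p = 0.101).

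Upstream regulators of p53 gave 0 called genes of 28 tested in either direction by limma. Of the 28, 18 were positive (64.3%, against 54.4% of all genes) and 10 negative, with a median difference of 0.02 against 0.01 for all genes. The most positive were Wrap53 (0.21), Daxx (0.18), Kat5 (0.15) and Ppm1d (0.14). Kat5, which encodes the acetyltransferase TIP60, measured 33.7, 37.7 and 43.5 in WT and 44.1, 46.7 and 40.8 in KO, with overlap of the groups. Hipk2 (-0.15), Setd7 (-0.09), Kmt5a (-0.08) and Cop1 (-0.08) were the most negative. Atm, the kinase that signals DNA breaks to p53, measured 246.9 to 305.9 over the 6 libraries with a difference of -0.03. Among 16 cell cycle genes that p53 represses through the DREAM complex limma called 0. Of these, 5 were positive (31.2%, against 54.4% of all genes) and 11 negative, with a median of -0.15 against 0.01. Summed, they came to 148.4 for KO 4, whereas the remaining 5 libraries lay between 256.0 and 277.1.

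**Figure D4:**
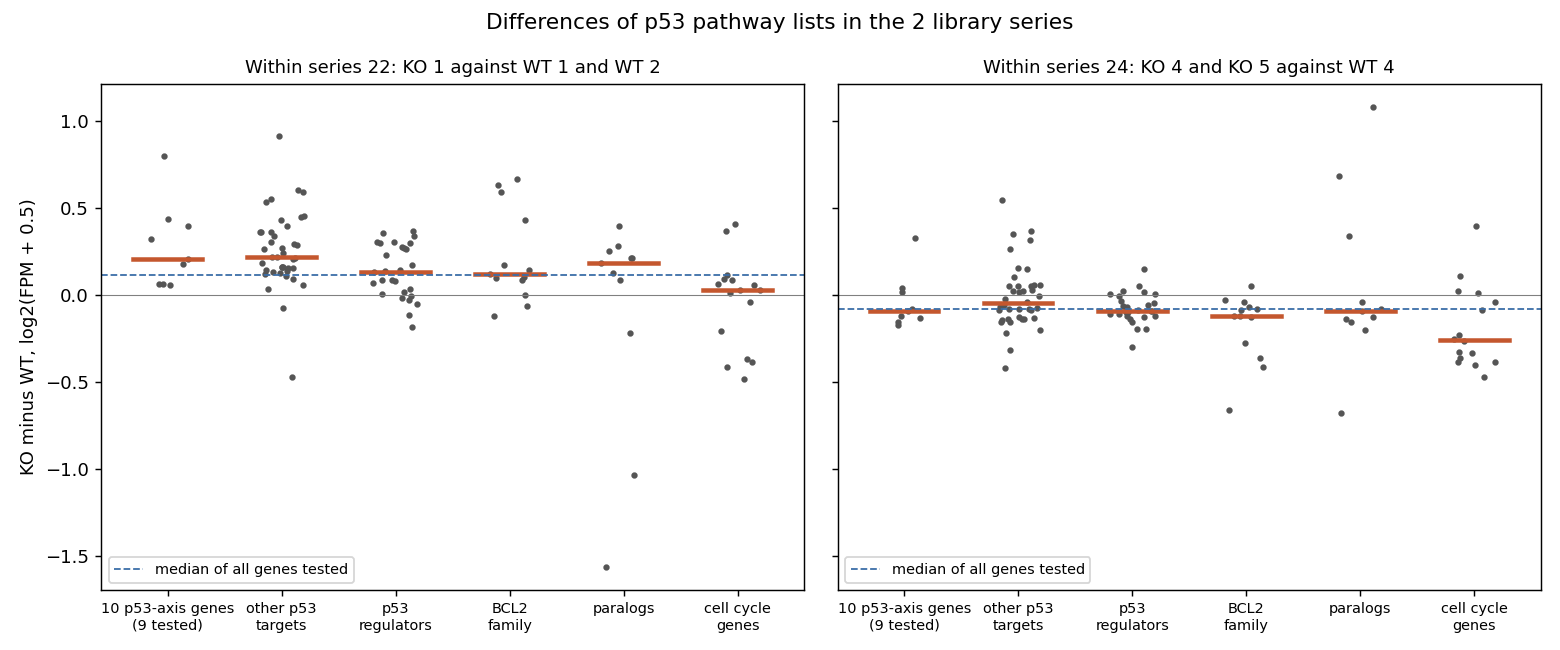
KO minus WT differences on the log2(FPM + 0.5) scale of the tested genes of 6 lists, within series 22 (left) and within series 24 (right). Each point is 1 gene, orange bars are list medians and the dashed line is the median of all genes tested, 0.12 on the left and -0.08 on the right, and the other p53 targets have medians of 0.22 and -0.05.

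Genes whose profile over the 6 libraries was most like that of Trp53 or Mdm2 were found by the root mean square distance between log2 values centred on their mean. For Trp53 these were Man2a2 (distance 0.0267), Naa60 (0.0282) and Med20 (0.0301), and for Mdm2 they were Ibtk (0.00886), Tstd2 (0.0134) and Senp2 (0.0158). Man2a2 measured 102.6, 111.4 and 149.2 in WT and 113.9, 153.0 and 144.1 in KO, high in the series 24 libraries as Trp53 was. None of these 6 genes belongs to the set or to the lists of p53 targets. Among so many genes some profile is always close over 6 libraries, and the distances were not set against a reference.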

How the data were processed

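The deposited values are robust FPM made by the authors and rounded to 1 decimal, handled as RPM rather than as raw counts. Rounding hides the value of single reads, so no depth or counting interval was derived. STAR, featureCounts, DESeq2 and DESeq are named, with build GRCm38.p3, per the submitters' processing notes, without roles or versions. Whether reads were assigned by strand remains unstated in the labels. Of 54532 gene rows, 54409 had a symbol by identifier without version, and 92 ERCC rows were left out of tests. Another 6 columns matched no sample by name and were not used. Loci and exon lengths are from GENCODE M21 (GRCm38). Genes with a mean of at least 1 were fitted with limma 3.58.1 in R 4.3.3 on log2(value + 0.5), a scale that understates changes of low genes, with a mean-variance trend and terms for series and genotype. The script was tested on simulated data. Exact permutation tests used scipy 1.17.1 and took no account of library series. Named beyond the 10 genes were Prmt5, the genes of each list with the most positive and most negative differences (4 each for targets and regulators, 2 each for the other lists), called list genes, overlapping genes and the 3 nearest profiles. Hspa1a, the markers, Atm, Bcl2, Sesn2, Sesn3, Gadd45a, Fdxr, Zfp365 and Rps27l were named after their values were seen. The set and lists were chosen with earlier results of these data known. Alternatives changed the pseudocount, filter, model terms, scaling, variance model and libraries.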

Additional observations from a re-analysis of the deposited data

How the results depend on the processing

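None of the 10 genes was called under any setting in which it was tested. The count of all genes called for KO against WT was 0 in every setting except the replicate block, with 5 (1 higher, 4 lower). Same-numbered libraries (1 and 4) had deviations from their group means that correlated at -0.16 and -0.41. Library series, which splits unevenly over the groups, also enters these values. They therefore cannot decide whether same-numbered libraries belong together. In the block fit WT 2 and KO 5 carry no information on genotype, and the 10 genes had differences from -0.22 to 0.68, each on the same side of 0 as without the block. With ERCC scaling the differences turned negative for Trp53 (-0.16), Mdm2 (-0.16), Bax (-0.0593), Bbc3 (-0.0515), Ccng1 (-0.0501) and Sesn1 (-0.21), where the median of all genes was -0.20. That left 1 positive gene of 9, and 7 of the 40 other targets. The Mdm4 difference turned to 0.0205 without a series term and to 0.000585 with median-of-ratios scaling.

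When each library was left out in turn, differences ranged from 0.02 to 0.09 for Trp53, -0.0911 to 0.205 for Mdm2, -0.134 to 0.0643 for Mdm4, -0.29 to 0.22 for Cdkn1a, -0.12 to 0.44 for Bax, -0.0784 to 0.398 for Bbc3, 0.02 to 0.32 for Ccng1, 0.33 to 0.80 for Phlda3, -0.170 to 0.0602 for Zmat3 and -0.16 to 0.18 for Sesn1. Those for Prmt5 ranged from -0.94 to -0.62. Series differences ranged from -0.0633 to 0.233 for Mdm2, -0.0165 to 0.545 for Bax and -0.0262 to 0.277 for Ccng1, negative only without WT 4. Positive genes numbered 3 to 9 of 9 in the set and 17 to 38 of 40 among other targets, both lowest without KO 1. Those 2 counts were chosen after seeing the data. Genes called by series, 21 in all, numbered 54 at a mean of at least 5, 13 with ERCC scaling, 0 without a trend and 0 to 110 with a library left out. The interaction called 8 genes with ERCC scaling, and could not be fitted without WT 4 or KO 1. The cause of these changes was not tested.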
